A study of Mus musculus with 6 samples.

Results

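The genes described here are 41 genes of the unfolded protein response and of the programme run by the transcription factor Atf4. They were taken as a list of gene symbols, which was drawn up with earlier results of these data known, and sorted by role into 5 sensors and regulators of translation, 4 transcription factors, 11 Atf4 targets of amino acid supply and stress, 15 endoplasmic reticulum (ER) chaperones and folding enzymes, and 6 genes of ER-associated degradation. On the array, 37 of the 41 had at least 1 probe by the platform annotation, out of 17626 genes with a probe, and 58 probes belonged to them. Atf6, Eif2s1, Dnajb11 and Sdf2l1 were not analysed here, since no probe carried their names. Each gene was read from 1 probe, that with the highest mean over the 6 arrays in the deposited value table. Asns, Chac1 and Trib3 lay under the filter on dim probes, which left 34 members among 11742 tested genes.

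RNA came from natural killer (NK) cells of the spleens of female C57Bl/6 mice aged 7 weeks, sorted as CD3-NK1.1+CD117+ cells (Kit+) or CD3-NK1.1+CD117- cells (Kit-). CD117 is the receptor tyrosine kinase encoded by Kit. Each group had 3 samples, numbered 1 to 3 in the titles, the sorts having been done 3 times. Every sample was read on its own Illumina bead array, which makes 6 arrays. The labels name no agent, transgene or deletion for either group, give a stated NK purity of about 98%, and do not say whether animals were pooled.

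Values are normalized log2 probe intensities, and a difference is the log2 value of Kit+ minus that of Kit-, fitted in limma with the title number as a block. A gene was called where the p-value adjusted over all 11742 genes by the Benjamini-Hochberg method was under 0.05. An array counted as above background for a probe where the probe was brighter than 95% of the 1174 probes for olfactory and vomeronasal receptors, a level between 6.58 and 7.23. Levels of different probes are not comparable with each other.

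Kit itself was higher in the Kit+ sample of each number, by 2.83 on the log2 scale (SE 0.22, adjusted p = 0.000563, 11.17 ± 0.79 against 8.34 ± 0.55, SD, n = 3 each), which checks the labels. The raw median intensity of the 6 arrays ran from 68.9 to 130, and 15.1% to 29.8% of probes were above background, with the lowest share on Kit- 2. Markers of NK cells were bright in both groups, with a summed linear intensity over 10 markers of 19914 to 22708 in Kit- and 17578 to 20665 in Kit+. Of these, Gzmb was above background on no array, and 3 of 9 tested were lower in Kit+ without overlap, Prf1 by -3.18, Eomes by -0.95 and Tbx21 by -0.94 (adjusted p = 0.000430, 0.0112 and 0.0196). Klrk1 was higher without overlap, by 0.61 (adjusted p = 0.118). Ncr1 and Klrd1 were higher in each number, by 0.46 and 0.21 (adjusted p = 0.156 and 0.568). In all, 3 of the 9 lay above 0 and 6 below. Of all tested genes, 7.92% were lower and 10% higher without overlap. Several markers of other cells were called higher in Kit+, as were 3.92% of all tested genes. These were 5 of 9 tested for macrophages and monocytes, 5 of 8 for dendritic cells, 4 of 6 for neutrophils and 2 of 7 for B and plasma cells. Without the block the counts were 4, 1, 0 and 0. The called macrophage markers were Adgre1, C1qb, Vcam1, Slc40a1 and Mpeg1, while C1qa, C1qc, Lyz2 and Marco were not called. For neutrophils S100a8, S100a9, Camp and Mpo were called, and Elane and Ltf were not. For B and plasma cells Cd79b and Irf4 were called, and 2 of 7 lay below 0. The 10 macrophage and monocyte markers on the array summed to 904 to 994 in Kit- and 2872 to 3369 in Kit+, with 1 of them (Cd14) above background on no array. The 9 dendritic cell markers summed to 1981 to 3661 and 4374 to 11443 (Flt3 on no array), the 7 neutrophil markers to 584 to 811 and 968 to 2660 (Ngp on no array). The 5 called dendritic cell markers were H2-Aa, H2-Ab1, H2-Eb1, Cd74 and Batf3. Itgax, Siglech and Zbtb46 were not called and differed by 0.17, -0.07 and -0.22. The 9 B and plasma cell markers summed to 818 to 1092 and 1017 to 2162, with Sdc1 above background on no array. The 8 T cell markers ranged from 1662 to 2929 and from 2636 to 4612, with 3 of them (Cd4, Cd8a and Cd5) above background on no array, and went both ways: Cd3d was higher in Kit+ by 1.44 (adjusted p = 0.00331), the 1 call among 7 tested, and Cd3e differed by -0.81 (adjusted p = 0.0974). The 4 erythroid and platelet markers ranged from 466 to 912 and from 1029 to 1595, with Hba-a1 differing by 1.35 (adjusted p = 0.0594) and a median difference of 0.07. The part of these cells in the values below was not tested.

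Unfolded proteins in the ER are sensed by Ern1 (IRE1), Eif2ak3 (PERK) and Atf6. IRE1 splices the mRNA of Xbp1, Atf6 is cut by proteases in the Golgi, and PERK phosphorylates the translation factor encoded by Eif2s1, which lowers translation in general while it favours that of Atf4. Other kinases that answer amino acid shortage, viral RNA or lack of haem reach the same factor, a convergence called the integrated stress response. Atf4 then acts on genes of amino acid synthesis and import and on Ddit3, Trib3 and Chac1, while Atf6 and Xbp1 act on ER chaperones and on the machinery that draws misfolded proteins out of the ER for degradation. Much of the control of Atf4, Atf6 and Xbp1 is in translation, cleavage or splicing, which probe intensity does not measure.

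Some promoters of these genes carry the elements by which the Atf4 side and the chaperone side of the response are usually told apart. Examples of both are shown because these sides were to be contrasted. RefSeq promoter windows of GRCm38.p6, from 250 bases before to 50 bases after a gene's start, were at hand for 36 of the 41 members and for 27025 genes in all. The C/EBP-ATF composite element, searched as TGATGCAA on both strands, was found in 4 of the 36 members against 1.03% of all genes. A looser form, TGATGNAA, which includes the former and was added after the first search, was found in 6 of the 36 against 4.51% of all genes. It lay in 4 of 10 windows of Atf4 targets, in that of Atf3 and in that of Herpud1, and in 0 of 13 windows of chaperones. The match of Trib3 lies after the start and is not shown. Capitals mark the element in the stretches before the start, written 5′ to 3′ on the gene's strand.
Herpud1, chr8:94386297-94386344, plus strand: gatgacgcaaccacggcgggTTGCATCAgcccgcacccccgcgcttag
Atf3, chr1:191183416-191183463, minus strand: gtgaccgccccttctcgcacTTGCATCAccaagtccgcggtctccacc
Chac1, chr2:119351029-119351076, plus strand: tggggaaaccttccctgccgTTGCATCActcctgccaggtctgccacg
Slc7a11, chr3:50443633-50443699, minus strand: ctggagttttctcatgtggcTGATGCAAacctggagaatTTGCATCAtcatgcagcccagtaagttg
Asns, chr6:7693210-7693252, minus strand: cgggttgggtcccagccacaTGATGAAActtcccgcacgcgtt

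The ER stress element, CCAAT followed after 9 bases by CCACG and searched on both strands, was found in 8 of the 36 members against 0.137% of all genes. It lay in 7 of 13 windows of chaperones and folding enzymes and in that of Syvn1, and in 0 of 10 windows of Atf4 targets. The site CCACG alone, which the full element contains, was in 27 of the 36 members and in 35.5% of all genes. The UPR element TGACGTGG was in 0 of the 36 and in 0.714% of all genes. In the stretches shown, capitals mark the 2 parts of the element, reversed where it lies on the other strand. The matches of Calr, Pdia6 and Dnajc3 are not shown.
Hspa5, chr2:34772005-34772063, plus strand: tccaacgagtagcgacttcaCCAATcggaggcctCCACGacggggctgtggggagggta
Hsp90b1, chr10:86705513-86705676, minus strand: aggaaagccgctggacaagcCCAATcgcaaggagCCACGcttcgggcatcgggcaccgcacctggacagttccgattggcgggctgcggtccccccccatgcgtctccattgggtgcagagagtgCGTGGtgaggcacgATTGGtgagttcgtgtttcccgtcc
Canx, chr11:50325780-50325838, minus strand: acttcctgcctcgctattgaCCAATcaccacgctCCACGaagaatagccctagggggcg
Creld2, chr15:88819500-88819558, plus strand: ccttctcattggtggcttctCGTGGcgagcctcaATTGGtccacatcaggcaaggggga
Syvn1, chr19:6046512-6046570, plus strand: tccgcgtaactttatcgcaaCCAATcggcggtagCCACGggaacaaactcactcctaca

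Between the groups, the members did not move as a block. By the probe used, Atf4, Herpud1, Derl2, Pdia3 and Pdia4 fell in Kit+, Slc3a2, Hsp90b1 and Dnajb9 rose, and 26 tested members were not called. Other kept probes of Atf4, Derl2, Dnajb9 and Slc3a2 gave smaller or opposite differences, which are described below. Thus 8 of 34 members, or 23.5%, were called, against 8.34% of all tested genes, 5 of them lower (4.42% of all genes) and 3 higher (3.92%). The median difference over the 34 was -0.02, against 0.03 over all tested genes, with 16 members above 0 and 18 below. In bulk RNA of sorted cells, fewer cells that express a gene and less of its RNA per cell cannot be told apart.

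**Figure D1:**
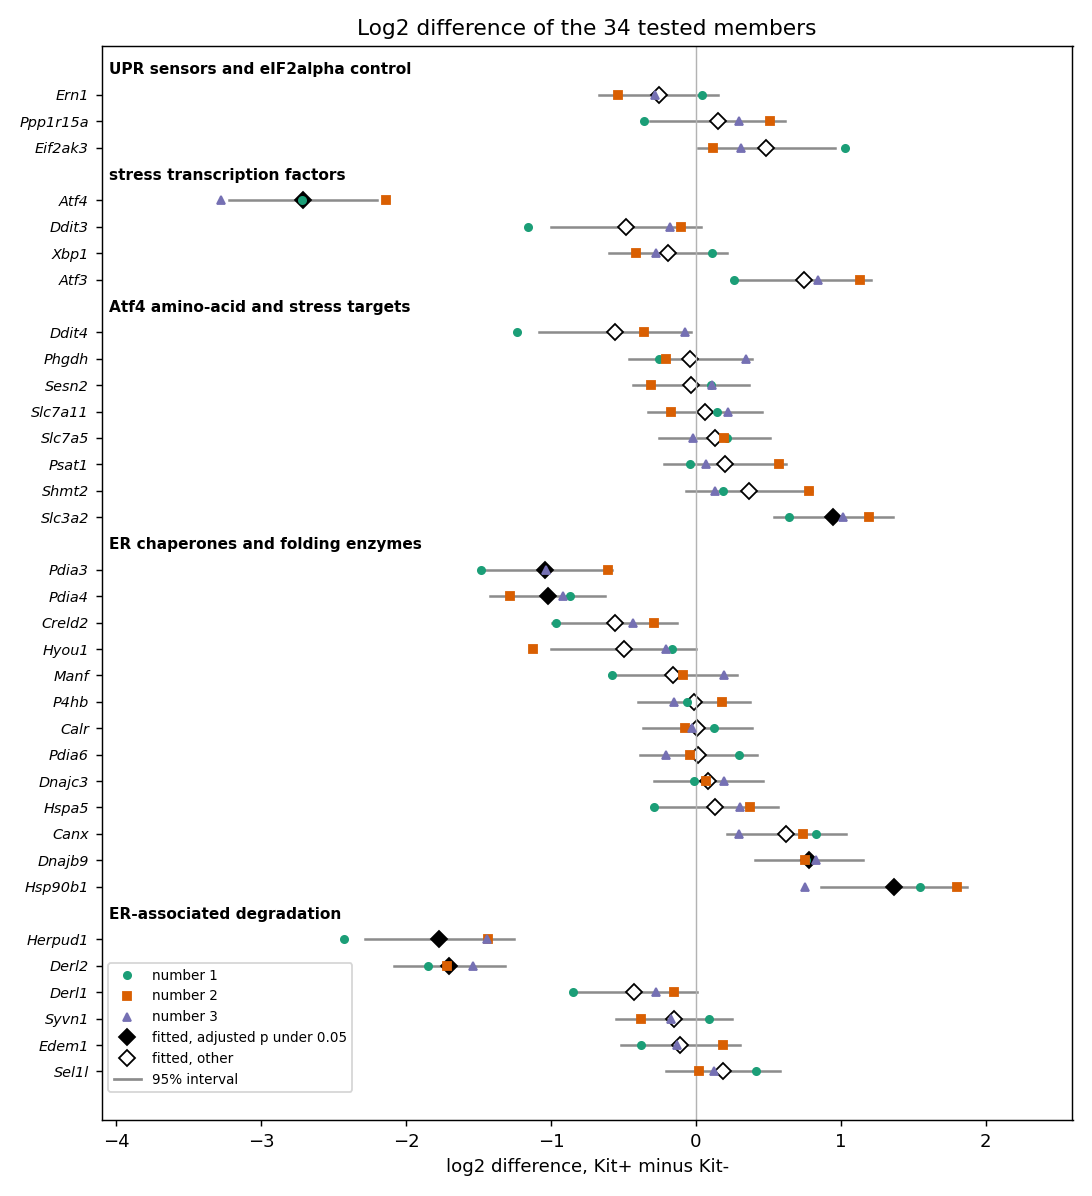
Log2 difference between Kit+ and Kit- for the 34 tested members, grouped by role. Coloured points are the differences within each title number, diamonds the fitted value (filled where called) and bars its 95% interval. Atf4 lies at -2.71 and Hsp90b1 at 1.37, at the ends of the range.

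Without the block, which leaves the spread between numbers in the error, 3 of the 34 members were called, or 8.82% against 1.29% of all genes. These were Atf4, Herpud1 and Derl2, all lower, where 0.758% of all genes were lower and 0.528% higher. In 7 of the 34 members the 3 Kit+ and 3 Kit- values did not overlap, or 20.6% against 17.9% of all genes. In 5 of these Kit+ was lower (7.92% of all genes) and in 2 higher (10% of all genes). Of the 34, 18 moved the same way in all 3 numbers, 10 lower (17.4% of all genes) and 8 higher (24.3% of all genes). With median centring of the arrays in place of quantile normalization none of the 8 was called (adjusted p between 0.0672 and 0.22), and over all genes 14 were higher and 10 lower. Their differences under that scaling kept the same sign.

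Atf4, the activator at the centre of the response, had the largest difference of any member. Its level was 9.71, 9.77 and 9.82 in Kit- samples 1, 2 and 3, and 6.99, 7.63 and 6.55 in Kit+ samples 1, 2 and 3. The Kit- values were close to each other (9.77 ± 0.06, SD, n = 3) and above every Kit+ value (7.06 ± 0.55). The difference was -2.71 (SE 0.23, adjusted p = 0.000563), a 6.54-fold fall. Kit+ was above background on 2 of 3 arrays, and with the dim array at its background level the fold was 6.23. The other kept Atf4 probe, annotated to another cDNA than the RefSeq mRNA, was near background, above it on 1 Kit- and 2 Kit+ arrays, and differed by 0.01 (SE 0.16).

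None of the other transcription factors was called, and their differences went both ways. Ddit3 (CHOP), the pro-apoptotic factor that Atf4 induces, stood at 9.78, 8.57 and 8.88 in Kit- and 8.62, 8.47 and 8.70 in Kit+. It was lower in Kit+ in each number, but most of that came from number 1, and the groups overlapped (difference -0.48, SE 0.23, adjusted p = 0.265). Xbp1 averaged 10.32 ± 0.19 and 10.13 ± 0.28 in Kit- and Kit+ (SD, n = 3 each; adjusted p = 0.641), and its spliced and unspliced forms cannot be told apart from 1 probe. Atf3, an early stress factor, ran the other way, at 9.85, 6.74 and 8.37 in Kit- and 10.12, 7.87 and 9.22 in Kit+. It was higher in Kit+ in all 3 numbers by 0.75 (SE 0.20, adjusted p = 0.0571), and passed without number 1 (difference 0.99, adjusted p = 0.00625) and among genes above background on at least 3 arrays (adjusted p = 0.0468). With a number left out few samples remain, and limma takes most of the spread from other genes.

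None of the 3 tested sensors and regulators was called in limma with or without the block. With the block 1 of them, Eif2ak3, had an unadjusted p under 0.05, as did 2605 of all 11742 tested genes. Ern1, the IRE1 kinase and nuclease, averaged 8.88 ± 0.20 and 8.62 ± 0.49 in Kit- and Kit+ (SD, n = 3 each), a difference of -0.26 with an interval of -0.67 to 0.16. Eif2ak3, the PERK kinase, was higher in Kit+ in each number, at 7.51, 7.99 and 7.67 against 8.54, 8.11 and 7.98 (difference 0.49, SE 0.21, adjusted p = 0.213). Ppp1r15a (GADD34), which recruits the phosphatase that ends the translational block, stood at 10.21 ± 0.61 and 10.36 ± 0.33 (SD, n = 3 each), a difference of 0.15 with an interval of -0.32 to 0.62.

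Herpud1 and Derl2, of ER-associated degradation, fell together with Atf4. Herpud1 encodes an ER membrane protein that joins the ubiquitin ligase Syvn1, and its level was 9.07, 8.16 and 8.15 in Kit- and 6.64, 6.72 and 6.71 in Kit+. The 3 Kit+ values were almost equal, at or near background, which they exceeded on 1 of 3 arrays. The difference was -1.77 (SE 0.23, adjusted p = 0.00283), a 3.41-fold fall, or 3.20-fold with the 2 dim arrays at background. Its promoter is the only one of the 5 windows of degradation genes that holds TTGCATCA, shown above. Of the 4 members with this element on either strand, 3 were tested and 1, Herpud1, was called. The others tested were Slc7a11, at 0.07, and Atf3, at 0.75.

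Derl2, a derlin of the channel through which misfolded proteins leave the ER, stood at 8.16, 8.66 and 7.95 in Kit- and 6.31, 6.95 and 6.41 in Kit+. The groups did not overlap, and Kit+ was above background on 1 of 3 arrays. Its difference was -1.70 (SE 0.17, adjusted p = 0.000974), a 3.25-fold fall, or 2.79-fold with the 2 dim arrays at background. Of its other kept probes, both annotated to the RefSeq mRNA, 1 was above background on all 6 arrays and differed by -0.31 (SE 0.18) and the other by 0.01 (SE 0.18).

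The other 4 degradation genes were not called. Syvn1, the ubiquitin ligase HRD1, averaged 10.45 ± 0.23 and 10.30 ± 0.04 in Kit- and Kit+, and its partner Sel1l at 8.05 ± 0.25 and 8.24 ± 0.15 (SD, n = 3 each). Their differences were -0.15 (interval -0.55 to 0.25) and 0.19 (interval -0.21 to 0.58). Derl1 was lower in Kit+ in each number without overlap, from 6.59 ± 0.33 to 6.17 ± 0.05 (adjusted p = 0.238), but only Kit- 1 was above background. Edem1, a lectin that directs glycoproteins to degradation, was above background on no array. The median of the 6 differences was -0.29.

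**Figure D2:**
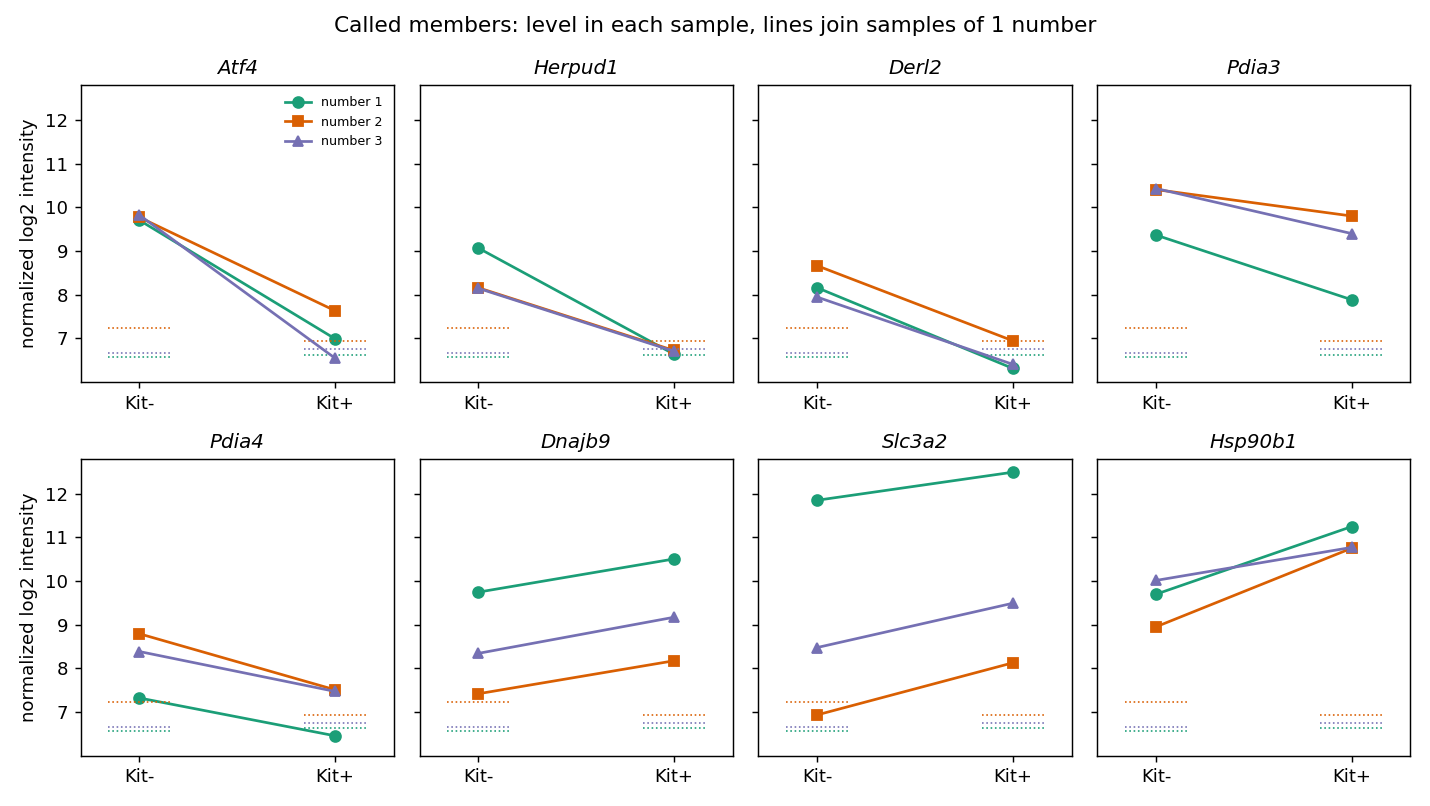
Normalized log2 intensity of the 8 called members in each sample. Lines join samples of 1 title number, and dotted strokes mark the background level of each array. Atf4, Herpud1 and Derl2 drop to or near background in Kit+, while the lines of Slc3a2 and Dnajb9 are far apart in level and run nearly parallel.

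The ER chaperones and folding enzymes split. Of 13 tested, Hsp90b1 and Dnajb9 rose, Pdia3 and Pdia4 fell and 9 were not called, with a median of 0.01. Hsp90b1 (GRP94), the HSP90 of the ER lumen, which folds integrins and Toll-like receptors, stood at 9.70, 8.95 and 10.02 in Kit- and 11.25, 10.75 and 10.77 in Kit+. Every Kit+ value lay above every Kit- value. It rose 2.58-fold (difference 1.37, SE 0.22, adjusted p = 0.00799), but did not pass without the block (adjusted p = 0.0857) or without number 2 (difference 1.15, adjusted p = 0.0936). Its window holds the ER stress element at 2 places, both shown above.

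Dnajb9 (ERdj4), a co-chaperone of BiP, stood at 9.75, 7.42 and 8.35 in Kit- and 10.51, 8.18 and 9.17 in Kit+. The gain was of like size in each number, although the numbers lay further apart than the groups. It rose 1.72-fold (difference 0.78, SE 0.16, adjusted p = 0.0225), with an adjusted p of 0.807 without the block, 0.104 without number 2 and 0.0685 without number 3. A second probe for the RefSeq mRNA, above background on 3 Kit- arrays and 1 Kit+ array, differed by -0.15 (SE 0.13).

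Pdia3 and Pdia4, thiol oxidoreductases that form disulfide bonds in new proteins, fell by similar amounts. Pdia3 (ERp57), which also serves in MHC class I loading, stood at 9.36, 10.41 and 10.43 in Kit- and 7.88, 9.80 and 9.40 in Kit+. It was lower in Kit+ in each number by 1.48, 0.61 and 1.03, and the groups overlapped. Its difference was -1.04 (SE 0.20, adjusted p = 0.0167, and 0.466 without the block). Pdia4 (ERp72) stood at 7.32, 8.79 and 8.39 in Kit- and 6.46, 7.51 and 7.47 in Kit+, and was above background on 2 of 3 Kit+ arrays. Its difference was -1.02 (SE 0.18, adjusted p = 0.0101, and 0.366 without the block). Without number 2 the adjusted p of Pdia3 was 0.0549 and that of Pdia4 0.0835.

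Hspa5 (BiP), the ER HSP70 by whose level the response is usually judged, was not called. It stood at 11.50, 8.48 and 8.95 in Kit- and 11.21, 8.86 and 9.25 in Kit+. Both number 1 samples were far above the rest, whatever their group. Its difference was 0.13, with an interval of -0.30 to 0.57 (adjusted p = 0.796). P4hb, the main protein disulfide isomerase, was steady, at 10.13 ± 0.13 and 10.12 ± 0.09 (SD, n = 3 each), a difference of -0.01 with an interval of -0.40 to 0.38.

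Among the remaining chaperones, Canx (calnexin), which holds glycoproteins during folding, was higher in Kit+ in each number, from 6.83 ± 0.40 to 7.45 ± 0.32 (adjusted p = 0.0703). Creld2, a secreted ER stress protein, was lower without overlap, from 8.20 ± 0.09 to 7.63 ± 0.45 (adjusted p = 0.114). Hyou1 (GRP170) differed by -0.50 (SE 0.22, adjusted p = 0.229), of which most came from number 2. Manf stood above background only in number 1, at 8.13 in Kit- and 7.55 in Kit+. Calr (calreticulin) was above background on no array by its 1 probe, and Dnajc3 and Pdia6 on 2 arrays and 1 array. All 8 members whose window holds the ER stress element were tested. Their differences ran from -0.56 (Creld2) to 1.37 (Hsp90b1), and Hsp90b1 was the 1 called.

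The Atf4 targets of amino acid supply and stress were mostly dim, and of the 8 tested only Slc3a2 was called, by the probe used. Asns, asparagine synthetase, averaged 6.25 ± 0.12 and 6.29 ± 0.26 in Kit- and Kit+ (SD, n = 3 each), Trib3, a pseudokinase that restrains Atf4, at 6.26 ± 0.29 and 6.19 ± 0.10, and neither was above background on any array by the probe used. Chac1, which breaks down glutathione, was above background on Kit+ 1 alone. Slc7a11, the cystine importer, and Sesn2, a leucine sensor upstream of mTORC1, were tested but above background on no array by the probe used. At this signal, differences in these 5 probes were not detectable. A second Asns probe for the RefSeq mRNA, also under the filter on dim probes and above background on 1 Kit+ array alone, stood at 6.12, 5.86 and 5.88 in Kit- and 6.66, 6.57 and 6.13 in Kit+. It was higher in Kit+ in each number without overlap (difference 0.50, SE 0.14, with no adjusted p since it was not among the tested genes). Another kept Slc7a11 probe was above background on 1 array of each group and differed by 0.09 (SE 0.13). A second Sesn2 probe, under the filter and above background on 1 Kit- array, differed by -0.40 (SE 0.22).

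Of the enzymes of serine and glycine synthesis, Psat1 stood at 7.49 ± 0.12 and 7.69 ± 0.21, Phgdh at 6.72 ± 0.19 and 6.68 ± 0.36 and Shmt2, the mitochondrial step, at 6.84 ± 0.25 and 7.20 ± 0.13 (SD, n = 3 each). Shmt2 was higher in Kit+ in each number without overlap (difference 0.37, interval -0.07 to 0.80, adjusted p = 0.318). A second Psat1 probe for the same mRNA, above background on 2 Kit- arrays and no Kit+ array, stood at 6.89, 7.13 and 7.06 in Kit- and 6.28, 6.06 and 6.50 in Kit+, a difference of -0.74 (adjusted p = 0.0392 when put in place of the first). The direction for Psat1 thus differs between its probes. Shmt2 also had a second probe for the RefSeq mRNA, under the filter and above background on no array. It was lower in Kit+ in each number (difference -0.28, SE 0.13). Ddit4 (REDD1), an inhibitor of mTORC1, stood at 8.33, 6.76 and 7.44 in Kit- and 7.10, 6.40 and 7.36 in Kit+, a difference of -0.56 (SE 0.23, adjusted p = 0.197) that came mostly from number 1. Slc7a5 (LAT1), the large neutral amino acid carrier, differed by 0.13, with an interval of -0.25 to 0.51.

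Slc3a2 (CD98 heavy chain), which carries both Slc7a5 and Slc7a11 to the cell surface, gave opposite answers from its probes, both annotated to the RefSeq mRNA. The brighter, used by the rule, stood at 11.85, 6.94 and 8.48 in Kit- and 12.49, 8.13 and 9.49 in Kit+. It was higher in Kit+ in each number by 0.95 (SE 0.18, adjusted p = 0.015, and 0.924 without the block), above background on 2 of 3 Kit- arrays, and its values spanned far more between numbers than between groups. The second probe stood at 10.70, 9.88 and 10.20 in Kit- and 7.71, 8.18 and 8.38 in Kit+, above background on all 6 arrays. There the groups did not overlap, and put in place of the first it fell by 2.17 (SE 0.24 in a fit of all probes, adjusted p = 0.00191). With the mean of both probes the difference was -0.61 (adjusted p = 0.117). The direction of Slc3a2 therefore rests on the probe, and the rise counted for it above holds for 1 of 2.

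**Figure D3:**
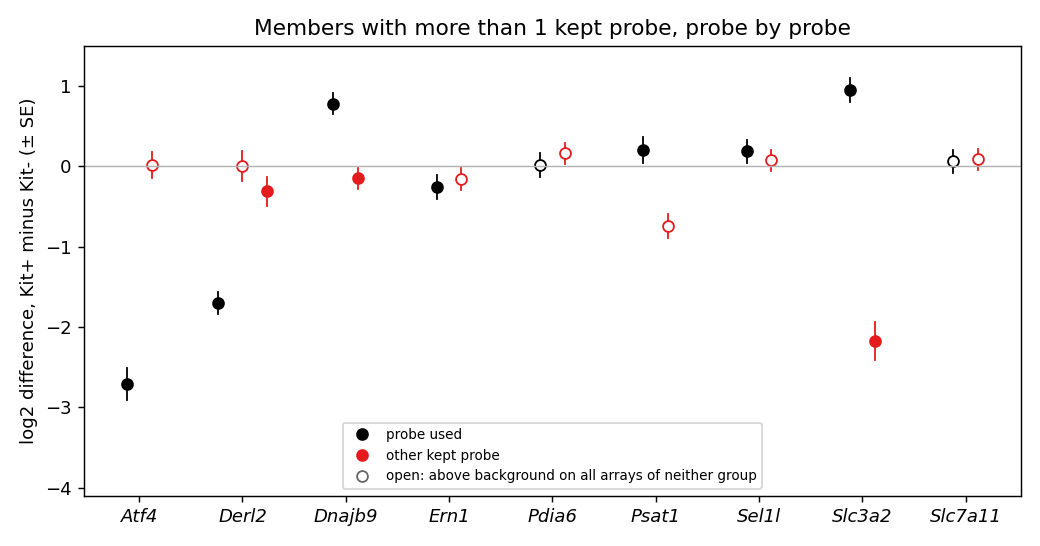
Log2 difference between Kit+ and Kit- (± SE, from a fit of all probes) for each kept probe of the 9 members with more than 1. Black marks the probe used and red the others, and open points were above background on all arrays of neither group. For Slc3a2 the points lie at 0.95 and -2.17.

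The medians of the Atf4 targets and of the chaperones lay close to each other. The median difference was 0.10 over the 8 tested Atf4 targets, with 5 above 0 and 3 below, and 0.01 over the 13 chaperones and folding enzymes, with 7 above and 6 below. Within numbers 1, 2 and 3 the medians were 0.12, 0.01 and 0.12 for the targets and -0.06, -0.04 and -0.02 for the chaperones. All of these lie near the median of all tested genes, while the spread within each group was wide, from -0.56 to 0.95 among targets and from -1.04 to 1.37 among chaperones. Of the 8 targets, 1 was above background on all 6 arrays and 2 on none, against 7 and 1 of the 13 chaperones. The chaperone median is the value of Calr, whose probe was above background on no array. Among genes above background on at least 3 arrays, the medians were 0.17 over 6 targets and -0.01 over 9 chaperones. The comparison is thus limited by dim probes in both groups, more so among the targets. With the mean of all kept probes the median of the targets was -0.03. In all, 9 members had more than 1 kept probe, and for 5 of these (Atf4, Derl2, Dnajb9, Psat1 and Slc3a2) another kept probe had the opposite sign. For Atf4 and Derl2 that probe differed by only 0.01 (SE 0.16 and 0.18), which gives no direction. A further Derl2 probe had the same sign as the one used, at -0.31.

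The title numbers lay further apart than Kit+ and Kit- in 24 of the 34 members, or 70.6%, against 74.6% of all tested genes, so this is no trait of the members. A few members differed widely between numbers. The mean of the 2 samples of a number spanned 4.64 across the numbers for Slc3a2, 2.68 for Hspa5, 2.68 for Atf3 and 2.33 for Dnajb9. These 4 were the only members with a span over 2, a limit chosen after the values were seen. They make 11.8% of the 34 members, and 1.35% of all tested genes had such a span. In all 4, number 1 was highest and number 2 lowest. Of the other members in the same order, Slc7a5, Manf and Ddit4 had the widest spans, at 1.94, 1.36 and 1.14. Pdia3 and Pdia4 ran the other way, lowest in number 1, with spans of 1.48 and 1.26. By contrast the span was 0.52 for Atf4, 0.43 for Herpud1 and 0.63 for Derl2, or 0.191, 0.242 and 0.37 of the size of their difference between the groups. The number 1 arrays also had a wider range of signal before normalization, with a raw 99th percentile of 6370 in Kit- and 4850 in Kit+ against 1027 to 1951 in numbers 2 and 3. Its part in these spans was not tested.

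**Figure D4:**
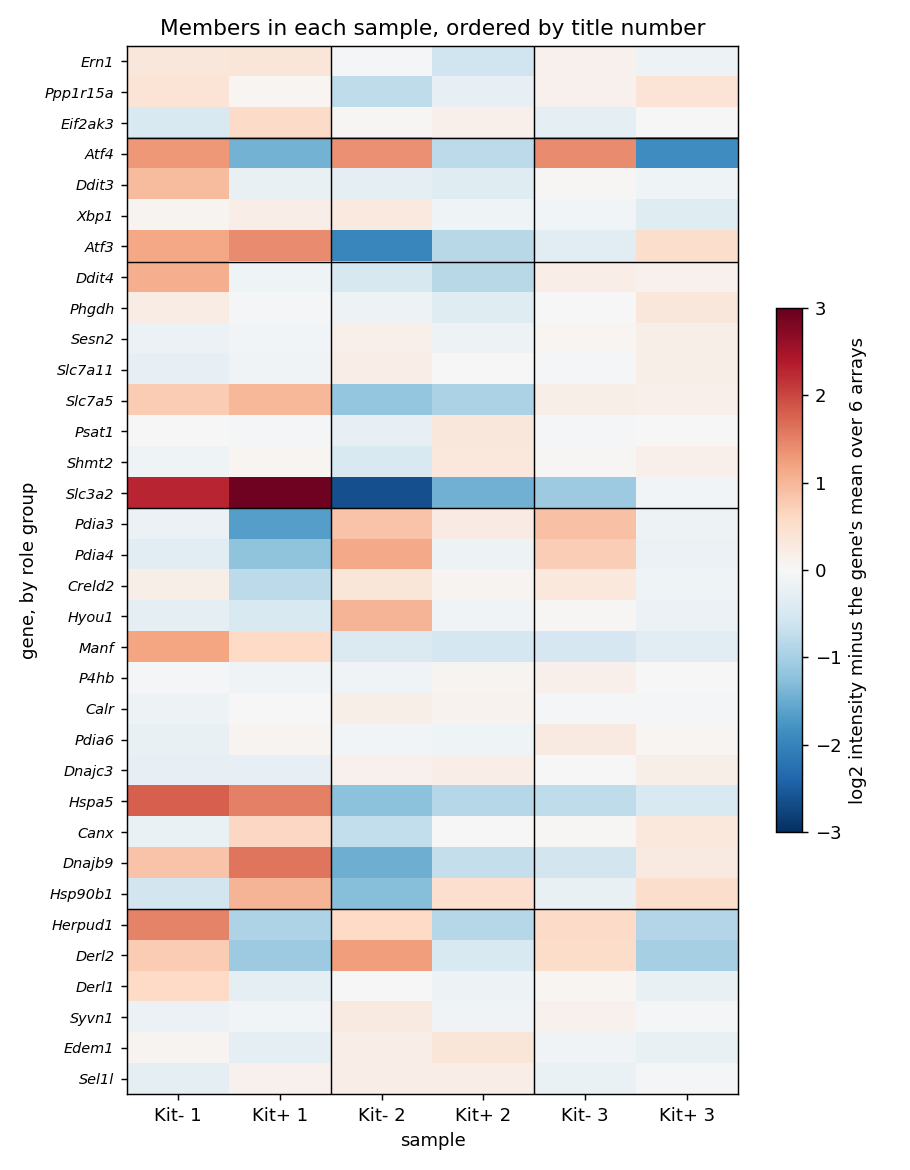
Normalized log2 intensity of the 34 tested members in each sample, minus the gene's mean over the 6 arrays, with samples ordered by title number and genes by role group. Hspa5, Slc3a2, Dnajb9 and Atf3 are high in both number 1 samples, while Atf4, Herpud1 and Derl2 alternate between Kit- and Kit+.

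Further genes of the same pathways were called about as often as any gene. Of 149 genes in 8 lists, 138 had a probe and 124 were tested, and 4 were higher and 6 lower, or 8.06% against 8.34% of all tested genes. The lists were made with earlier results of these data known. Their medians ran from -0.10 for the site proteases and other ER stress factors to 0.31 for the heat shock genes, of which 1 of 11 rose (3 of 14 had no probe).

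Among 17 other Atf4 targets and partners, 2 rose and 1 fell (median -0.02). Slc1a5, the glutamine carrier, fell by 1.47 (SE 0.18, adjusted p = 0.00197), with Kit+ above background on 1 of 3 arrays, and it was the 1 gene of the 124 called without the block as well (adjusted p = 0.0378). Nupr1, a stress-induced chromatin protein, rose at least 1.84-fold, from above background on no Kit- array to all 3 Kit+ arrays (adjusted p = 0.0048). Mthfd2, of mitochondrial folate metabolism, rose by 0.94 (SE 0.23, adjusted p = 0.0388). Targets of Atf4 thus stood on both sides of 0.

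Of 18 cytosolic aminoacyl-tRNA synthetases, many of which Atf4 is known to induce, 12 lay above 0 and 6 below, and 1 was called. That was Farsa, a phenylalanyl-tRNA synthetase chain, which fell by 0.97 (adjusted p = 0.0146). Among 11 other kinases and subunits around the translation factor, Impact, an inhibitor of the amino acid sensing kinase, rose by 1.12 (adjusted p = 0.0144). In the ER lists, the peptidyl-prolyl isomerase Fkbp2 and the oligosaccharyltransferase subunit Ostc fell by 1.02 and 0.65 (adjusted p = 0.0359 and 0.0442), out of 22. Herpud2, the paralogue of Herpud1, fell at least 1.65-fold and was above background on no Kit+ array (adjusted p = 0.0114), the 1 call among 10 other degradation genes. Mbtps1, the site-1 protease that cleaves Atf6, fell by 0.69 (adjusted p = 0.0372), with Kit+ above background on 1 of 3 arrays. None of 26 genes of ER translocation and export was called in limma with or without the block, while 8 had an unadjusted p under 0.05 and 15 lay above 0. Over all 11742 tested genes, 2605 had such a p and 6358 lay above 0. Hspe1, the mitochondrial co-chaperonin in the heat shock list, rose by 1.01 (adjusted p = 0.00851).

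**Figure D5:**
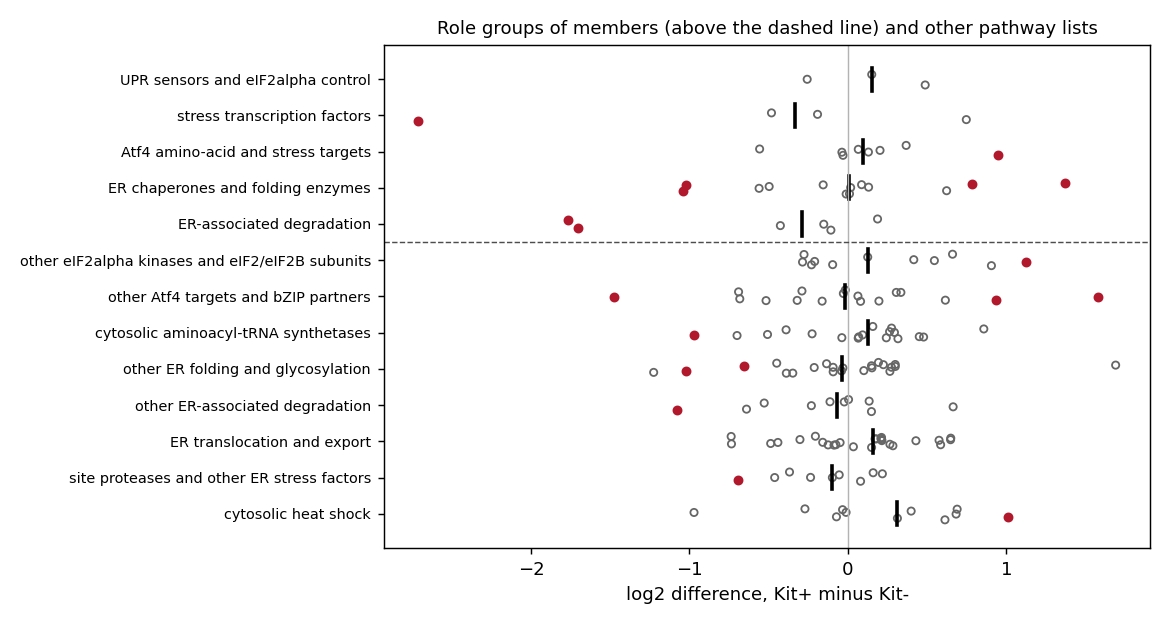
Log2 difference between Kit+ and Kit- for each tested gene of the 5 role groups (above the dashed line) and of the 8 further pathway lists. Filled points were called and black strokes are medians, which lie between -0.34 and 0.31.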

How the data were processed

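RNA of 3 Kit+ and 3 Kit- samples was read on Illumina arrays with a single colour and 45988 probes each. Per the file headers, each array file gives the raw linear intensity of every probe and no detection values. The submitters' processing notes name BeadStudio 3.1.1.0; a genome build is not given in the sources used here. The deposited value table holds intensity that equals a quantile normalization of the raw values without background correction, with a largest relative difference of 0.000223. It chose the probe of each gene and served as an alternative.

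Background was corrected by normexp in limma with an offset of 50, and the corrected intensities were taken to log2 and quantile normalized. Genes whose probe lay above the median of all probes were tested. Genes were named by the platform annotation in GEO, in which 29457 probes had 1 symbol, 11 several and 16520 none listed, and symbols were updated by gene ID against RefSeq GRCm38.p6 (29399 found).

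The comparison used limma 3.58.1 (lmFit, eBayes) under R 4.3.3, with the title number as a block, since the members' rule pairs the samples and the labels say that sorts and comparisons were done 3 times, although they do not say that samples of 1 number came from the same sort. Samples that share a number deviated together from their group means (correlations of 0.641, 0.529 and 0.278 over the tested genes), and the correlations of other pairs lay between -0.576 and 0.0882. The fit was tested on simulated arrays, where the share of false calls was somewhat above the nominal threshold. Where a group was at or below background, the fold is the brighter mean over the dimmer group's mean with dim arrays at their background level. Precision is limited by the 6 arrays. Since the labels do not say which animals a sample came from, p-values measure only the spread among these samples, which may be technical. Alternatives were no block, the value table, median centring, an offset of 16, other filters, the mean of probes, and each number left out; the next kept probe of members was added after seeing the data. The members and lists were chosen with earlier results of these data known. All 41 members are named, and from each further list up to 4 called genes with the smallest p. Protein sequences were not used here.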

Additional observations from a re-analysis of the deposited data

How the results depend on the processing

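Of the 8 called members, Atf4, Herpud1 and Derl2 stayed past the threshold without the block and without each of the 3 numbers, and lost it with median centring (adjusted p = 0.0672, 0.16 and 0.112). The other 5 also lost it without the block and without number 2. Dnajb9 also lost it with the mean of kept probes (difference 0.32) and without number 3, and the mean of kept probes turned Slc3a2 to -0.61 and left Atf4 at -1.35 and Derl2 at -0.67 (adjusted p = 0.00663 and 0.0357). Put in its place, the next kept probe gave 0.0142 for Atf4, -0.15 for Dnajb9, -0.74 for Psat1, -2.17 for Slc3a2 and -0.31 for Derl2. Fits with a number left out have 2 samples per group, and limma then takes most of the spread from other genes. Without number 1 the adjusted p of Atf4 was 1.6e-20, against 0.000563 in the main fit. Passing the threshold in such fits therefore says little about a gene's own spread.

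Members higher and lower numbered 0 and 3 with no replicate block, and 0 and 0 with median centring. The number higher was 1 with the mean of kept probes and 1 with the next kept probe. With a number left out, 0 to 4 were higher and 3 to 5 lower, the fewest without number 2. Over all genes 62 were higher and 89 lower with no replicate block, 14 and 10 with median centring (1643 genes at an unadjusted p under 0.05), and 62 to 687 higher and 98 to 554 lower with a number left out. The block as a pairing thus raised the calls over all genes from 151 to 979.

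Medians that moved were those of the targets (0.17 above background on at least 3 arrays, -0.0344 with the mean of kept probes or the next kept probe), the chaperones (-0.0111 above background on at least 3 arrays and with the next kept probe), the transcription factors (-0.0887 with the next kept probe) and the degradation genes (-0.93 above background on at least 3 arrays). With a number left out, medians ran from -0.0310 to 0.22 for the sensors and from 0.00719 to 0.0306 for the chaperones. Probes near or below background, such as those used for Asns, Trib3, Calr and Edem1, allow no statement on change.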
